A study of Mus musculus with 6 samples.

Results

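The genes described here encode the enzymes of glycolysis and of glycogen synthesis and breakdown, together with their regulators and side branches, in mouse skeletal muscle. They were taken by symbol through their Ensembl gene identifiers, and all 37 were found among the 41025 genes of each table. The RNA came from tibialis anterior, a fast muscle of the hindlimb, in C57BL/6 mice at 8 weeks of age, with 3 libraries labelled wild type and 3 labelled Mettl21e KO, and the study asks what changes when this gene of a muscle methyltransferase is deleted. How the deletion was made, and whether it was limited to muscle, is not stated in the labels. Values were deposited as FPKM (fragments scaled to gene length and to library depth), and 8476591 to 10856669 fragments stood behind a library. The labels call the replicates biological without tying each to a mouse of its own, so each p-value reflects library-to-library spread, which may be technical.

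Mettl21e itself did not separate the labels. It was at 2.46, 0.309 and 1.23 FPKM (wild-type label, libraries 1 to 3) and 1.64, 1.45 and 1.88 FPKM (knockout label, likewise), so all 3 knockout-label values lay within the wild-type-label range. The values are 1 per gene and cannot show the loss of single exons. Every direction given here is therefore one between labels. Against the labelled tissue, 11 of 12 fast-fibre markers passed the filter on low values, led by Tnnt3, fast troponin T, at 17739 ± 1202 against 18661 ± 1425 FPKM (mean ± SD, n = 3 each). The exception was Tnnc2, fast troponin C, at 0.374, 0.555 and 0.908 FPKM against 1.45, 0.385 and 1.18 FPKM, named after its values were seen. Such values cannot tell a silent gene from one missed in the counting, which was not tested.

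Glycolysis splits glucose into pyruvate in a chain of cytosolic enzymes and yields ATP without oxygen, and fast-contracting fibres rely on it for bursts of work. Muscle keeps glucose in store as glycogen, a branched polymer that glycogen synthase lengthens and glycogen phosphorylase shortens, with phosphorylase kinase switching phosphorylase on when calcium or adrenaline signals arrive. Many of the enzymes exist as a muscle isoform and as isoforms typical of liver, brain or other cells, each from a gene of its own.

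The glycolytic genes were among the most abundant transcripts of the muscle. Together the 37 genes held 6.83% to 7.61% of the summed FPKM of a library and 5.49% to 6.05% of its fragments. Of them, 9 had a mean of at least 1000 FPKM and 21 a mean of at least 100 FPKM. Aldoa, the muscle aldolase that splits the sugar chain, was highest, at 14862, 14039 and 13543 FPKM (wild-type label, libraries 1 to 3) and 14837, 15339.5 and 13161 FPKM (knockout label, likewise). Gapdh, the dehydrogenase often used as a reference transcript, came next at 9071, 8911 and 9572 FPKM (wild-type label, libraries 1 to 3) and 9545, 9628 and 9150.4 FPKM (knockout label, likewise). In both genes the ranges of the labels overlapped. At the other end Aldoc, the brain aldolase, had 1 or 2 fragments in every library (0.0794 to 0.195 FPKM), under the floor of 3 fragments (0.238 to 0.305 FPKM), and was the 1 gene of the 37 below the mean of 1 FPKM needed for the test.

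**Figure D1:**
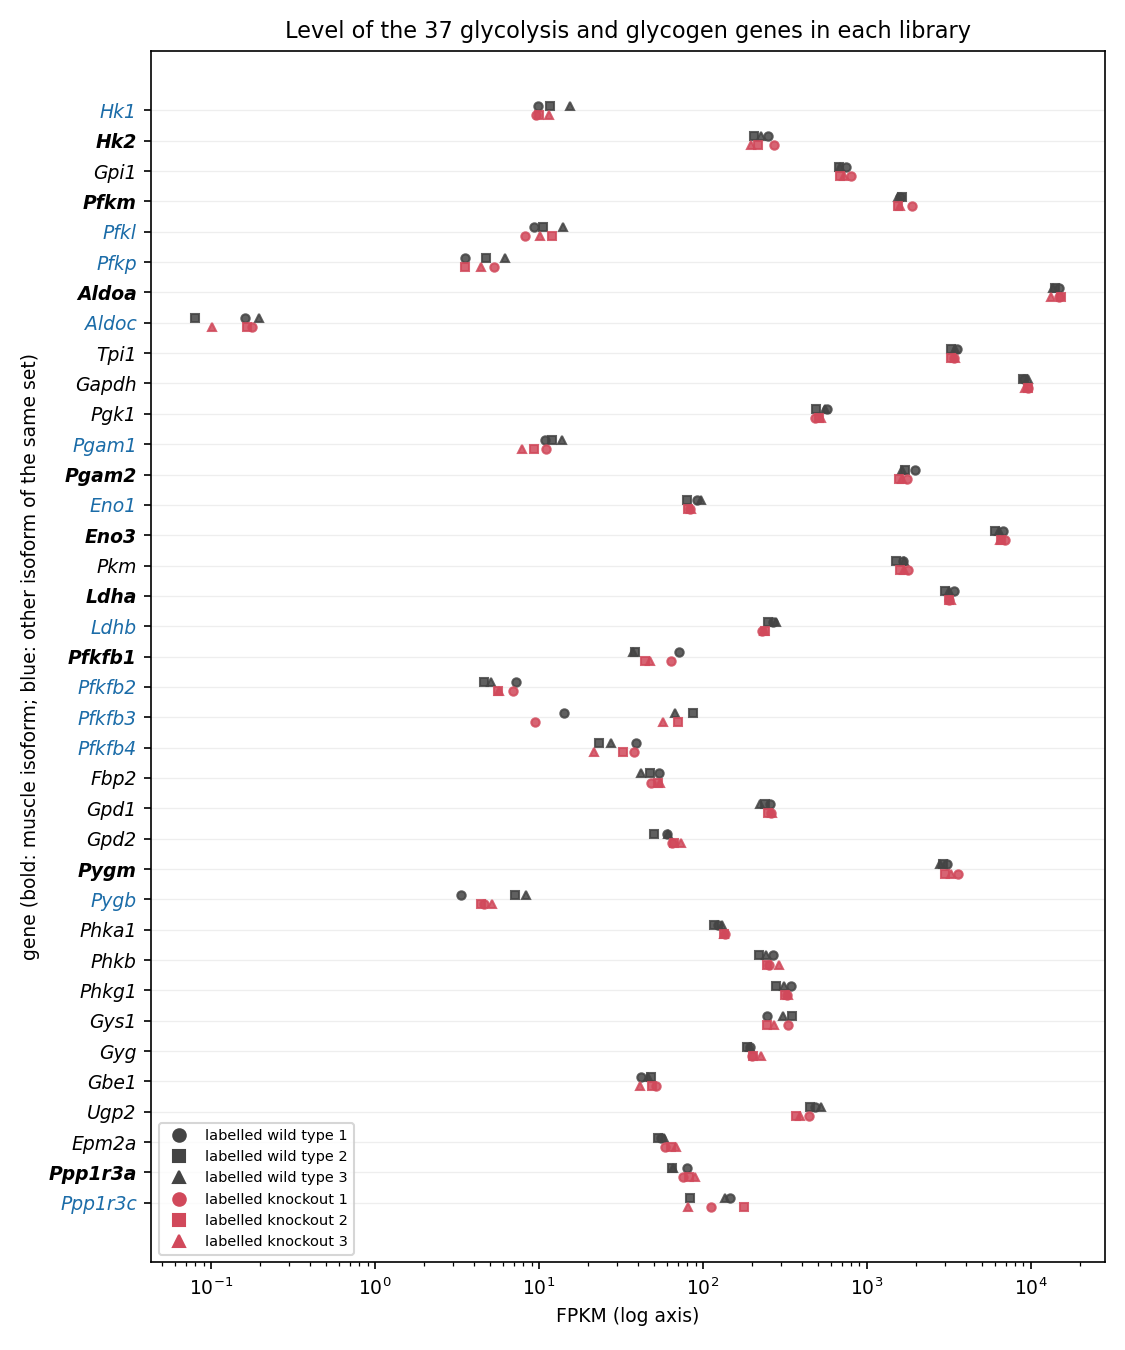
FPKM of each of the 37 genes (rows) in each of the 6 libraries on a log axis, with libraries labelled wild type in grey and those labelled knockout in red, and 1 symbol per replicate number. Muscle isoforms (bold) such as Aldoa, Eno3 and Pygm sit far to the right of the other isoforms of their sets (blue), and the libraries of the labels lie close together except for Pfkfb3, which runs from 9.41 to 86.8 FPKM.

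Between the labels, 0 of the 36 tested genes passed limma's test on log2(FPKM + 1), with Benjamini-Hochberg adjustment over all 11383 tested genes (adjusted p 0.988 or above for each of the 36). Of all tested genes 0 were called as well (0%), and limma voom on recovered fragments also called 0. At an unadjusted p under 0.05 there were 4 of the 36 (11.1%), against 4.59% of all tested genes, and voom gave 5 of the 36 and 4.11% of all genes. The 4 were Ugp2, Pgam1 and Ldhb on the lower side under the knockout label (3.31% of all genes) and Gpd2 on the higher side (1.28%). The groups did not overlap for 6 of the 36 (16.7%), against 9.48% of all tested genes: Gpd2, Phka1, Gyg and Epm2a stood higher (3.84% of all genes) and Ldhb and Ugp2 lower (5.64%). The count of 4 moved with the fit, and the share of all genes is given beside each value. With library weights it was 9, beside 12.4% of all genes, and with no mean-variance trend 2, beside 4.81%. Without library 1, 2 and 3 of the wild-type label it was 7, 2 and 1, beside 11.9%, 3.13% and 3% of all genes. Without library 2 and library 3 of the knockout label it was 0 and 0, beside 3.01% and 3.57%.

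The 95% intervals, like the p-values, reflect library-to-library spread. The 95% interval of the log2 difference lay between -0.5 and 0.5 for 27 of the 36 genes, and within -1 and 1 for 35, with Pfkfb3 as the exception (95% interval -2.24 to 1.51). Over the 36 genes 22 differences were above 0 and 14 below, with a median of 0.04, while 43.3% of all tested genes were above 0 with a median of -0.02. Split by isoform, 8 of 9 muscle isoforms were above 0 (median 0.06) and 9 of 11 tested other isoforms below (median -0.14). Subtraction of library medians and quantile normalization kept 8 of 9 and gave 8 of 11. The count of muscle isoforms went to 5 of 9 without library 2 labelled wild type or without library 1 labelled knockout, so it rested on those libraries, and the count of other isoforms ran from 7 to 10 with 1 library left out.

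**Figure D2:**
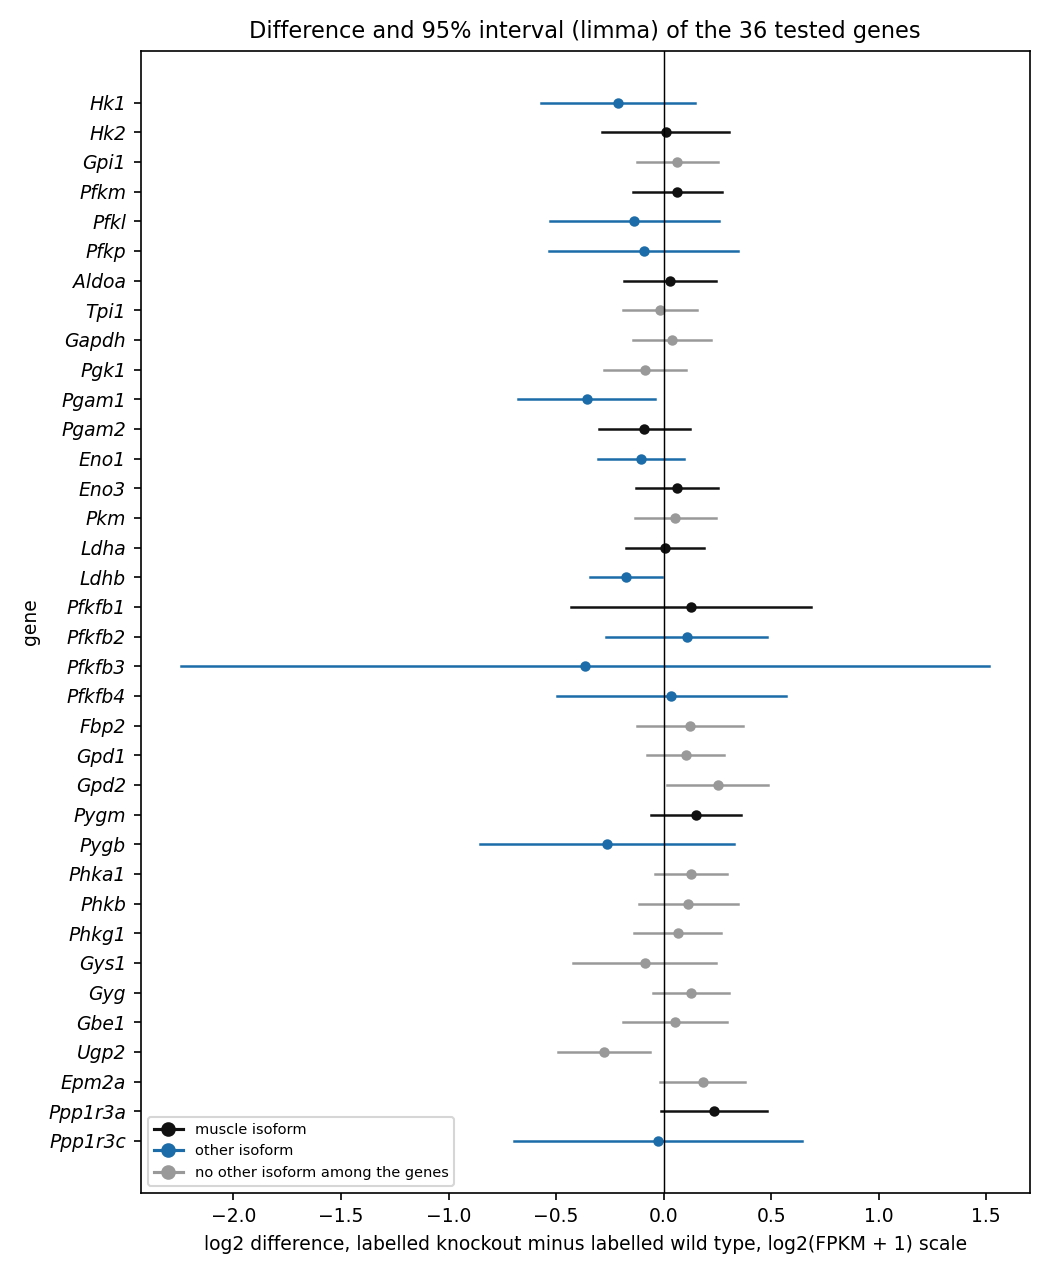
Log2 difference (labelled knockout minus labelled wild type, log2(FPKM + 1) scale) of the 36 tested genes, with points for the limma estimate and bars for its 95% interval, black for muscle isoforms, blue for other isoforms and grey for genes with no other isoform in the list. Most intervals cross 0; those of Ugp2, Pgam1, Ldhb and Gpd2 do not before adjustment, and the interval of Pfkfb3 is the widest.

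Phosphorylation of glucose is the entry to the pathway. Hk2, the insulin-responsive hexokinase of muscle, was at 248, 203 and 226 FPKM (wild-type label, libraries 1 to 3) and 273, 216 and 197 FPKM (knockout label, likewise) (log2 difference 0.01, SE 0.13, 95% interval -0.29 to 0.31, limma adjusted p = 0.9998). Hk1, the hexokinase of most other tissues, was at 9.82, 11.6 and 15.3 FPKM against 9.53, 9.97 and 11.5 FPKM in the same order. Library 3 labelled wild type was the highest for Hk1 and the ranges of both genes overlapped between labels. Gpi1, which isomerises the sugar phosphate, was at 702 ± 33.8 against 735 ± 56.4 FPKM (mean ± SD, n = 3 each, labelled wild type against labelled knockout, as in all such values that follow).

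Phosphofructokinase commits sugar to glycolysis. Its muscle isoform Pfkm was at 1599, 1646 and 1551 FPKM (wild-type label, libraries 1 to 3) and 1879, 1548 and 1601 FPKM (knockout label, likewise) (log2 difference 0.06, SE 0.09, 95% interval -0.14 to 0.27, limma adjusted p = 0.988). Library 1 labelled knockout was above all the others and the remaining 5 lay between 1548 and 1646 FPKM. The liver isoform Pfkl was at 9.27, 10.5 and 13.9 FPKM against 8.22, 11.96 and 10.2 FPKM. The platelet isoform Pfkp was at 3.55, 4.73 and 6.21 FPKM against 5.29, 3.55 and 4.44 FPKM. Both were lowest in library 1 and highest in library 3 among the libraries labelled wild type, and no member of the set separated the labels.

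Tpi1 and Gapdh, in the middle of the chain, varied least among the 37 genes. Tpi1, which interconverts the triose phosphates, ran from 3269 to 3536 FPKM over the 6 libraries, a coefficient of variation of 3.10%. For Gapdh it was 3.28% and for Ldha 4.27%, and 21 of the 37 genes were under 10%. Of the 21 genes with at least 100 FPKM, 14 had a smaller SD of log2(FPKM + 1) over the 6 libraries than the median of the 743 tested genes that abundant (0.11). Pgk1, which makes the pathway's earliest ATP, was at 537 ± 43.1 against 505 ± 20.1 FPKM (log2 difference -0.09), and its value is uncertain because 53.9% of its 50-base stretches recur elsewhere, in Pgk1-rs7 among others. Pkm, pyruvate kinase, was at 1616 ± 97.6 against 1679 ± 95.8 FPKM (95% interval -0.13 to 0.24). Of the 50-base stretches, 25.1% in Gapdh and 25.8% in Pkm recur elsewhere, so these values are uncertain as well.

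Phosphoglycerate mutase moves a phosphate along the carbon chain and comes as a muscle form, Pgam2, and a widespread form, Pgam1. Pgam2 was at 1954, 1708 and 1628 FPKM (wild-type label, libraries 1 to 3) and 1763, 1575 and 1624 FPKM (knockout label, likewise) (log2 difference -0.09, SE 0.09, 95% interval -0.30 to 0.12, limma adjusted p = 0.988). Pgam1 (mm10 chromosome 19:41911923-41918660, forward) was at 10.9, 11.97 and 13.8 FPKM against 11.0, 9.26 and 7.86 FPKM, with 122 to 238 fragments a library (log2 difference -0.36, SE 0.14, 95% interval -0.68 to -0.04, limma adjusted p = 0.988). For Pgam1 library 1 of the knockout label came just within the wild-type-label values and the other 2 lay below them. Pgam1 shares 36.2% of its words with other genes, among them the pseudogenes Pgam1-ps1 and Pgam1-ps2, so its level is uncertain.

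Enolase, the next enzyme, has the muscle form Eno3 and the widespread form Eno1. Eno3 was at 6777, 5998 and 6410.1 FPKM (wild-type label, libraries 1 to 3) and 6949.96, 6551 and 6511 FPKM (knockout label, likewise) (log2 difference 0.06, SE 0.08, 95% interval -0.13 to 0.25, limma adjusted p = 0.988). Eno1 was at 92.1, 80.4 and 96.7 FPKM against 83.6, 81.3 and 84.4 FPKM (95% interval -0.31 to 0.09), with 26.0% of its words shared. The labels overlapped for both genes.

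The promoters of the mutase and enolase pairs are shown as examples. Within each pair the muscle gene stood at least 66.3 times above its partner in FPKM. The same held for the muscle genes of aldolase, phosphorylase and phosphofructokinase, whose promoters are not shown. Each line gives the 250 bases before the transcription start in RefSeq's GRCm38.p6, 5′ to 3′ on the gene's strand, with E-boxes (CANNTG, the class of site that myogenic factors of the MyoD family bind, read on either strand) in capitals. The windows are chr11:5803797-5804046 (minus strand) for Pgam2, chr19:41911621-41911870 (plus) for Pgam1, chr11:70656926-70657175 (plus) for Eno3 and chr4:150236458-150236707 (plus) for Eno1, the last being the start nearest the annotated gene start among 3.
Pgam2: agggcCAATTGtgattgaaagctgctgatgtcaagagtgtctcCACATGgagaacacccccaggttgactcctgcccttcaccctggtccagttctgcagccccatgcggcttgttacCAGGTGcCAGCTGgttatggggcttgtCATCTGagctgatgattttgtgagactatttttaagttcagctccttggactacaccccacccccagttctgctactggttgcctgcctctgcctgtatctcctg
Pgam1: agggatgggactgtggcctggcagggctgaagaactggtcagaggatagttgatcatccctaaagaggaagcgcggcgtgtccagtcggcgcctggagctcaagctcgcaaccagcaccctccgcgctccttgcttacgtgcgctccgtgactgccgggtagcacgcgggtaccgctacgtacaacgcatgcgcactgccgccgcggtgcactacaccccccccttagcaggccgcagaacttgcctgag
Eno3: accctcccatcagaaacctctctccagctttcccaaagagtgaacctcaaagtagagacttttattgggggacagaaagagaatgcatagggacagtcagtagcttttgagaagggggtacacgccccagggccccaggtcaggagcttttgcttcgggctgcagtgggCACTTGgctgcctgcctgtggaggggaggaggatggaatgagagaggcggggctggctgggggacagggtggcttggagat
Eno1: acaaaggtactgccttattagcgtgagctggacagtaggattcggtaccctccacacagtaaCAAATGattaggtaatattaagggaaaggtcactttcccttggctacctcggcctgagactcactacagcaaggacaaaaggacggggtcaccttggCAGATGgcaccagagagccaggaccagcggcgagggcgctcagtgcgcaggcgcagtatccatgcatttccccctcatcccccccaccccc
The window of Pgam2 held 5 E-boxes and that of Pgam1 held 0, while that of Eno3 held 1 and that of Eno1 held 2, so the count went with the level in the mutase pair and not in the enolase pair. By kind, with 1 window a gene, 8 of 9 muscle isoforms, 5 of 12 other isoforms and 12 of 15 remaining genes had an E-box, counts given as a description. Windows were matched for 36 of the 37 genes (all but Gpd1). An E-box was in 69.1% of their 55 windows and in 66.2% of all 32851 windows. The short core ACGTG, which hypoxia-inducible factors bind and which also occurs inside the E-box CACGTG, was in 36.4% against 16.6%, with both strands searched. In the same way GGGCGG was in 45.5% against 32.7% and TATAAA in 3.64% against 12.4%. With 1 window a gene, median GC content was 57.2% for muscle isoforms, 57.8% for other isoforms and 59.6% for the remaining genes, against 52.4% over all windows. The part of base composition in these shares was not tested. Windows of 1 gene overlap, and a match is a string of letters, not a bound site.

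Lactate dehydrogenase turns pyruvate into lactate and back. Ldha, the form of fast muscle, was at 3384, 2971 and 3174 FPKM (wild-type label, libraries 1 to 3) and 3169, 3144 and 3253 FPKM (knockout label, likewise) (log2 difference 0.01, SE 0.08, 95% interval -0.17 to 0.19, limma adjusted p = 0.999). Ldhb (mm10 chromosome 6:142490249-142507957, reverse), the form typical of heart and oxidative fibres, was at 268, 248 and 277 FPKM (wild-type label, libraries 1 to 3) and 228, 240.03 and 234 FPKM (knockout label, likewise) (log2 difference -0.18, SE 0.07, 95% interval -0.34 to -0.01, limma adjusted p = 0.988). All 3 libraries labelled knockout were below all 3 labelled wild type for Ldhb, by 248 against 240.03 FPKM at the nearest pair, and the gene missed the test over all genes. It shares 21.0% of its words with Gm5514, so its level is uncertain. Of the markers of slow and oxidative fibres, 7 of 12 had a limma unadjusted p under 0.05, all on the lower side (3.31% of all tested genes). All 12 had a log2 difference below 0 (median -0.79, 0 called), and none of them was at 0. Their summed level, led by Mb, was 10525, 12861 and 11706 FPKM (wild-type label, libraries 1 to 3) and 9907, 10376 and 7043 FPKM (knockout label, likewise). Under the wild-type label the sum was highest in library 2 and Ldhb in library 3. In that library 3, Tnnt1, Tnnc1, Tnni1 and Myl3 lay within or below the knockout-label values and the remaining markers above them. The part of these markers in the Ldhb values was not tested.

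The glycerol phosphate shuttle carries reducing power made by glycolysis into mitochondria. Its mitochondrial enzyme Gpd2 (mm10 chromosome 2:57237635-57370719, forward) was at 60.7, 50.1 and 61.0 FPKM (wild-type label, libraries 1 to 3) and 64.4, 66.3 and 73.8 FPKM (knockout label, likewise) (log2 difference 0.25, SE 0.10, 95% interval 0.02 to 0.49, limma adjusted p = 0.988). The 3 libraries labelled knockout were above the 3 labelled wild type, by 64.4 against 61.0 FPKM at the nearest pair. A930012O16Rik and Gm13535 overlap Gpd2 on the other strand, and no source used here says whether counting used strand, which leaves its value uncertain. The cytosolic enzyme Gpd1 was at 258, 238 and 223 FPKM against 259.7, 248 and 262 FPKM, with library 1 of the wild-type label among the knockout-label values (95% interval -0.08 to 0.28). Fbp2, the muscle fructose bisphosphatase that runs the committed step in reverse, was at 47.7 ± 5.98 against 51.9 ± 3.51 FPKM (95% interval -0.12 to 0.37).

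The bifunctional PFKFB enzymes set the level of the sugar bisphosphate that activates phosphofructokinase, and 1 of their genes, Pfkfb3, had the largest coefficient of variation of the 37 (62.5%). Pfkfb3, an inducible form, was at 14.2, 86.8 and 67.6 FPKM (wild-type label, libraries 1 to 3) and 9.41, 70.5 and 56.7 FPKM (knockout label, likewise), resting on 338, 2083 and 1321 fragments against 202, 1626 and 1062. In each label library 1 was far below the other 2, so the spread within a label was much wider than the difference between them (log2 difference -0.36, SE 0.82, 95% interval -2.24 to 1.51, limma adjusted p = 0.988). Without library 1 of the wild-type label the log2 difference was -1.15. Its sign turned without library 1 of the knockout label, to 0.51, and without library 2 of the wild-type label, to 0.12. The skeletal muscle and liver form Pfkfb1 was at 70.9, 38.3 and 37.6 FPKM against 63.9, 44.2 and 47.4 FPKM. Pfkfb2, the heart form, was at 7.26, 4.61 and 5.11 FPKM against 6.91, 5.65 and 5.71 FPKM. Pfkfb4, known from testis, was at 39.0, 23.2 and 27.4 FPKM against 38.0, 32.5 and 21.6 FPKM. In these 3 genes library 1 was the highest of each label, the reverse of Pfkfb3, a pattern picked out after the values were seen. The labels do not say that libraries with the same number share a day or batch. Over all tested genes same-numbered libraries correlated in their deviations at -0.04 to 0.02, which cannot show whether they do. The cause of the pattern was not tested.

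**Figure D3:**
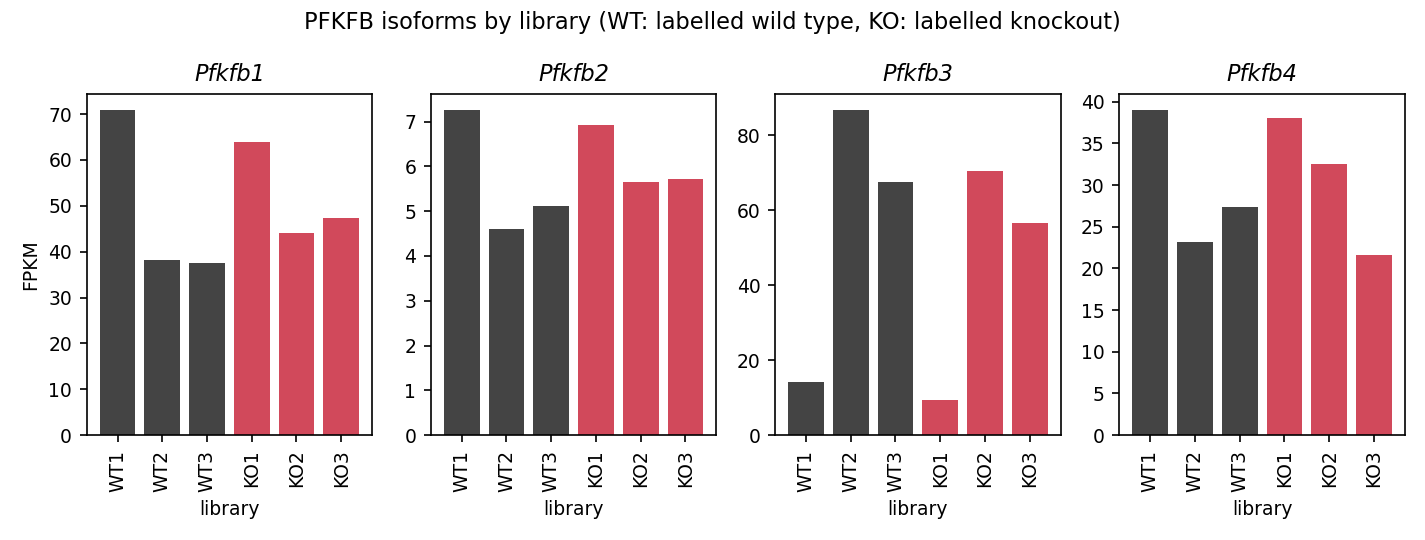
FPKM of the 4 PFKFB genes (panels) in each library, with grey bars for libraries labelled wild type (WT1 to WT3) and red bars for those labelled knockout (KO1 to KO3). Pfkfb3 is low in WT1 and KO1, at 14.2 and 9.41 FPKM, where the other 3 genes are at their highest within each label.

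Within each isoform set the share of the muscle form describes the balance per length, and the 9 shares and the Gys1 to Pygm ratio were compared by exact permutation tests, where 3 against 3 libraries allow no p below 0.1. In aldolase, phosphorylase, phosphofructokinase, mutase and enolase the muscle form made up over 98% of the set in every library. The lowest such share was 98.5% for Eno3. Hk2 made up 93.6% to 96.6% of the hexokinases and Ldha 92.0% to 93.3% of the lactate dehydrogenases. Against the other isoforms this put Pygm 337 to 923 times above Pygb, Pgam2 118 to 207 times above Pgam1 and Pfkm 76.9 to 139 times above the sum of Pfkl and Pfkp.

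For 2 sets the shares of the labels did not overlap. The Ldha share was 92.7%, 92.3% and 92.0% (wild-type label, libraries 1 to 3) and 93.3%, 92.9% and 93.3% (knockout label) (92.3 ± 0.344 against 93.2 ± 0.220, SD, n = 3, exact two-sided permutation p = 0.1, 0.5 adjusted over the 10 ratios). The Eno3 share was 98.7%, 98.7% and 98.5% (wild-type label, libraries 1 to 3) and 98.8%, 98.8% and 98.7% (knockout label) (exact two-sided permutation p = 0.1, adjusted 0.5). Both p are the smallest the design allows, and both miss the threshold. The differences were 0.858 and 0.152 percentage points. The other 7 shares overlapped, with p from 0.3 for Pgam2 to 0.9 for Aldoa, whose share rests on 1 or 2 Aldoc fragments a library.

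The length behind the FPKM matters for any level set between genes. The lengths recovered from the values were within 1 base of the mean length of all annotated transcripts for 25 of the 37 genes. Hk1 was scaled by 1297 bases although its longest annotated transcript has 4278. Pfkfb1 made up 25.0% to 54.0% of its set as deposited. Its recovered length, the smallest that fitted, was 662 bases beside a mean annotated transcript length of 1324 bases. Its fragments may therefore be undercounted, and its share is not given on another length. With fragments per base of exon union instead of the deposited FPKM, an alternative added after seeing the data, Ldha made up 85.7% to 87.9% of its set. On that scale Pygm stood 623 to 1707 times above Pygb, Pfkm 367 to 688 times above the sum of Pfkl and Pfkp, and Pgam2 127 to 224 times above Pgam1. The difference between labels became 1.44 percentage points for the Ldha share and 0.0535 for the Eno3 share, both still without overlap. The fold between labels of a single gene's FPKM does not depend on this length.

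**Figure D4:**
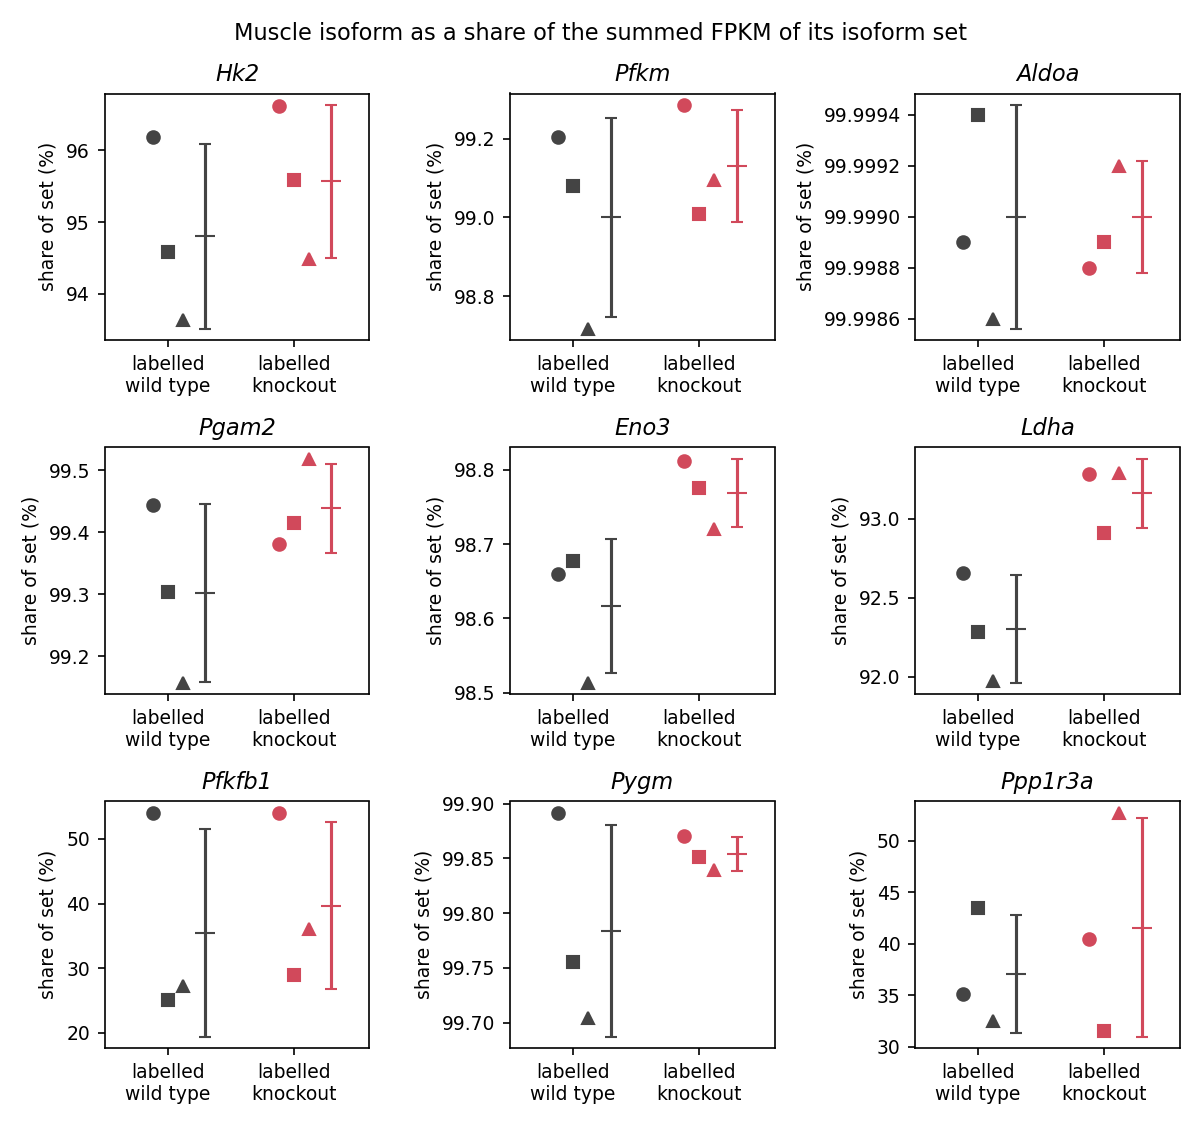
Share of the muscle isoform in the summed FPKM of its isoform set, in percent, for 9 sets (panels, each with its own axis range that does not start at 0), with 1 point per library (circle, square and triangle for libraries 1, 2 and 3) and the mean ± SD (n = 3) beside it. Only in the Ldha and Eno3 panels do the points labelled knockout (red) all lie above those labelled wild type (grey), by 0.858 and 0.152 percentage points on average.

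In bulk RNA, fewer cells of a type and less RNA per cell cannot be told apart. Among the libraries labelled wild type, Hk1, Pfkl, Pfkp, Pgam1 and Pygb were each lowest in library 1 and highest in library 3. They were picked out of the 12 other isoforms after the values were seen. Aldoc, Eno1, Ldhb, Pfkfb2, Pfkfb4 and Ppp1r3c were instead lowest in library 2, and Pfkfb3 was highest in library 2. Pygb, the brain phosphorylase, was at 3.33, 7.15 and 8.28 FPKM against 4.62, 4.44 and 5.20 FPKM (95% interval -0.85 to 0.33), which puts library 1 labelled wild type under every library labelled knockout and the other 2 above. Fibroblast markers summed to 249, 512 and 502 FPKM under the wild-type label (libraries 1 to 3) and to 265 to 349.98 FPKM under the knockout label, and 10 of 10 had a log2 difference below 0 (0 called). Macrophage and leukocyte markers summed to 37.6, 94.2 and 79.7 FPKM and to 37.4 to 46.0 FPKM, with 6 of 6 tested below 0. Under the wild-type label both sums were highest in library 2, not in library 3. No marker of either list was at 0 in all libraries, and their part in the isoform values was not tested.

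Glycogen is built from glucose activated by Ugp2, on the primer protein glycogenin, lengthened by glycogen synthase and branched by Gbe1. Ugp2 (mm10 chromosome 11:21321138-21371201, reverse), which makes UDP-glucose, had the smallest unadjusted p of the 36 genes. It was at 483, 452 and 521 FPKM (wild-type label, libraries 1 to 3) and 443, 369.99 and 389 FPKM (knockout label, likewise) (log2 difference -0.28, SE 0.09, 95% interval -0.49 to -0.06, limma adjusted p = 0.988). All 3 libraries labelled knockout were below all 3 labelled wild type, the nearest pair being 452 and 443 FPKM. Gm12043 lies antisense to Ugp2, which leaves the value uncertain.

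The remaining synthesis genes were split in direction, with Gyg and Gbe1 above 0 and Gys1 below. Gyg (mm10 chromosome 3:20122084-20155317, reverse), the glycogenin gene, was at 193, 185 and 195 FPKM (wild-type label, libraries 1 to 3) and 199, 202 and 225 FPKM (knockout label, likewise) (log2 difference 0.13, SE 0.08, 95% interval -0.05 to 0.30, limma adjusted p = 0.988), with no overlap and the libraries labelled knockout on the higher side. Gys1, the muscle glycogen synthase, was at 247, 347 and 306 FPKM against 328, 245 and 272 FPKM. Its highest library was 2 labelled wild type and its lowest 2 labelled knockout, with wide overlap (log2 difference -0.09, 95% interval -0.42 to 0.25). Without library 2 labelled wild type, or library 2 labelled knockout, its log2 difference turned to 0.024 and 0.0075. Gbe1, the branching enzyme, was at 45.3 ± 3.18 against 47.2 ± 5.47 FPKM (95% interval -0.19 to 0.30).

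Breakdown is led by phosphorylase and its kinase. Pygm, the muscle phosphorylase whose loss causes McArdle disease, was at 3077, 2920.3 and 2789.6 FPKM (wild-type label, libraries 1 to 3) and 3571, 2971 and 3239 FPKM (knockout label, likewise) (log2 difference 0.15, SE 0.09, 95% interval -0.06 to 0.36, limma adjusted p = 0.988). Libraries 1 and 3 labelled knockout lay above the range of the other label and library 2 inside it. Phka1 (mm10 chromosome X:102513975-102644246, reverse), the muscle regulatory subunit of phosphorylase kinase, was at 122.7, 117 and 130.2 FPKM (wild-type label, libraries 1 to 3) and 136, 134 and 134 FPKM (knockout label, likewise) (log2 difference 0.13, SE 0.07, 95% interval -0.04 to 0.30, limma adjusted p = 0.988), so its libraries labelled knockout were all higher, by at least 134 against 130.2 FPKM. Phkb, the other regulatory subunit, was at 243 ± 23.8 against 263 ± 25.1 FPKM, and Phkg1, the catalytic subunit of muscle, at 311 ± 32.0 against 324 ± 6.39 FPKM. Sumf2 and Zbed5 overlap Phkg1 on the other strand, so that value is uncertain.

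Set against each other, 4 of 5 breakdown genes and 2 of 4 synthesis genes had a log2 difference above 0, with medians of 0.11 and -0.02 beside -0.02 over all tested genes. With 1 library left out these counts ran from 3 to 4 and from 1 to 3: the synthesis count was 1 without library 1 of either label and 3 without library 2 of either label. Pygm stood 8.41 to 12.5 times above Gys1 in FPKM, and 13.3 to 19.7 times per base of exon union. The log2 ratio of Gys1 to Pygm was -3.64, -3.07 and -3.19 under the wild-type label (libraries 1 to 3) and -3.44, -3.60 and -3.58 under the knockout label. The difference of -0.24 was within the spread of the libraries labelled wild type (exact two-sided permutation p = 0.4, 0.625 adjusted over the 10 ratios).

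Regulators that dock on glycogen were the remaining group. Ppp1r3a, the muscle subunit that brings a phosphatase to glycogen and favours synthesis, was at 79.6, 64.6 and 65.5 FPKM (wild-type label, libraries 1 to 3) and 75.3, 81.7 and 89.7 FPKM (knockout label, likewise) (log2 difference 0.23, SE 0.11, 95% interval -0.01 to 0.48, limma adjusted p = 0.988). Library 1 of the knockout label came within the wild-type-label values and the other 2 above them. Ppp1r3c, a second such subunit found in many tissues, was at 147, 83.8 and 136 FPKM (wild-type label, libraries 1 to 3) and 111, 177 and 80.4 FPKM (knockout label, likewise). It ran 2.203-fold from lowest to highest, with both extremes under the knockout label (95% interval -0.70 to 0.64). Ppp1r3a made up 31.6% to 52.7% of the pair. Epm2a (mm10 chromosome 10:11343404-11459644, forward), the gene of laforin, which removes phosphate from glycogen and is mutated in Lafora disease, was at 55.8, 53.4 and 57.9 FPKM (wild-type label, libraries 1 to 3) and 58.3, 63.7 and 68.3 FPKM (knockout label, likewise) (log2 difference 0.18, SE 0.09, 95% interval -0.02 to 0.38, limma adjusted p = 0.988). The labels did not overlap for Epm2a, by 58.3 against 57.9 FPKM at the nearest pair, and Rpl17-ps11 lies antisense to it, which leaves the value uncertain.

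**Figure D5:**
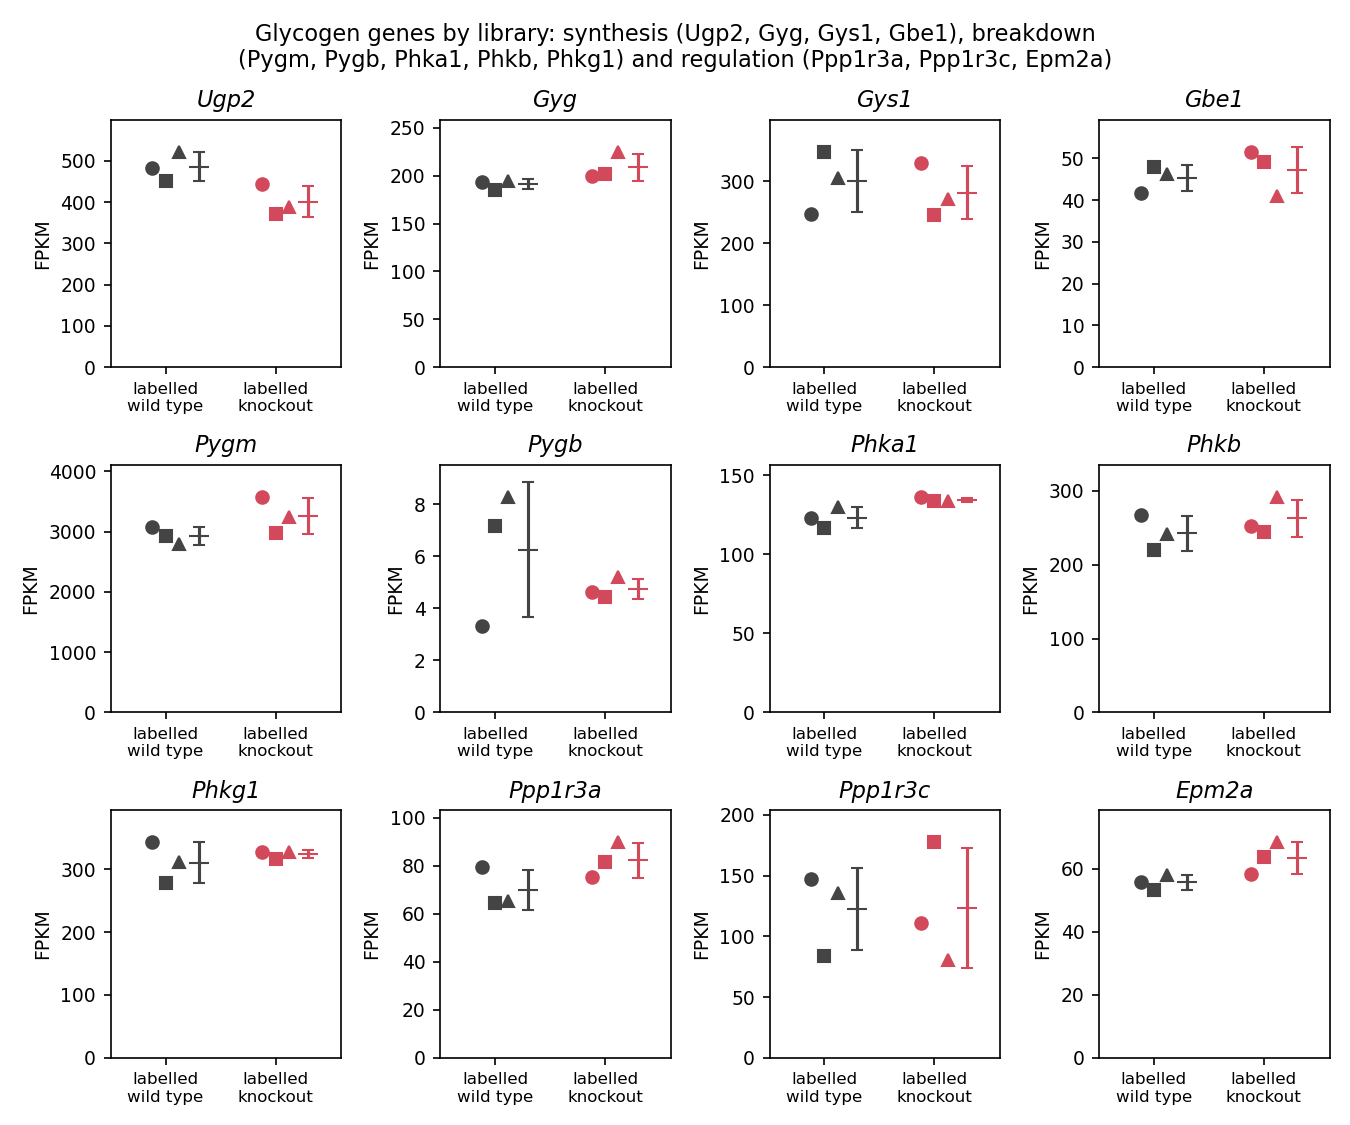
FPKM of 12 glycogen genes (panels, axes from 0), with 1 point per library and the mean ± SD (n = 3) beside it, grey for libraries labelled wild type and red for those labelled knockout. The points of the labels separate for Ugp2 (lower in red) and for Gyg, Phka1 and Epm2a (higher in red), with 0 genes past the adjusted test.

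Of 50 further genes of these pathways, 35 were tested, 19 with a log2 difference above 0 and 16 below (median 0.00), and 0 were called. Among the most abundant were Slc2a4, the insulin-regulated glucose transporter, at 463 ± 21.7 against 459 ± 60.6 FPKM, Pgm1, a phosphoglucomutase, at 354 ± 31.1 against 405 ± 32.3 FPKM, and Calm3, a calmodulin gene whose product is a subunit of phosphorylase kinase among other roles, at 316 ± 9.82 against 312 ± 3.57 FPKM. Further isoforms of other tissues, Hkdc1, Pgk2, Ldhc and Ldhal6b, were listed at 0 in all 6 libraries.

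In the marker lists 0 genes were called. Mb (myoglobin) and Fhl1, the most abundant of the slow and oxidative list, were at 6546 ± 158 against 5701 ± 409.95 FPKM and 3250.1 ± 878 against 2239 ± 969.7 FPKM. Of 11 tested fast-fibre markers 7 were above 0, with sums of 76765 to 88279 against 79843 to 83126 FPKM; Mylpf, the fast regulatory light chain, was at 16323 ± 1453 against 14929.6 ± 397 FPKM. Of 6 adipocyte markers 6 were below 0, with sums of 101 to 147 against 87.3 to 102 FPKM; Fabp4 was at 83.4 ± 5.92 against 72.0 ± 1.88 FPKM and Cfd at 25.0 ± 10.2 against 10.7 ± 2.24 FPKM. Dcn and Col3a1 led the fibroblast list at 119 ± 22.5 against 106 ± 15.2 FPKM and 77.9 ± 34.5 against 50.7 ± 10.4 FPKM, and Cd74 and Lyz2 the macrophage list at 26.7 ± 13.0 against 16.5 ± 1.87 FPKM and 24.3 ± 11.4 against 12.6 ± 2.95 FPKM. Endothelial and mural markers were below 0 for 7 of 10, led by Rgs5 at 173 ± 46.5 against 169.6 ± 14.9 FPKM and Acta2 at 67.2 ± 20.5 against 62.2 ± 6.76 FPKM. Nerve markers were below 0 for 3 of 6, with Pmp22 at 33.0 ± 3.49 against 29.9 ± 3.88 FPKM. Red-cell markers were below 0 for 5 of 6, led by Hbb-bs at 286 ± 95.8 against 291 ± 76.7 FPKM and Hba-a1 at 183 ± 50.5 against 169 ± 43.2 FPKM. No marker of these lists was at 0 in all libraries, and their part in the values of the 37 genes was not tested.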

How the data were processed

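Each library came as a table of FPKM, made and deposited by the authors. Build mm10, Cufflinks 2.2.1 and TopHat2 2.1.1 are named in the submitters' processing notes, without roles. No source used here gives the annotation release, the strand setting or the read filters. Symbols came from GENCODE vM21 on the same assembly for 40452 of 41025 genes. Where values overlap a gene on the other strand (18 of the 37 genes) or share more than 15% of their 50-base words with other genes (8 of 37), they are uncertain. The 8 are Gpi1, Gapdh, Pgk1, Pgam1, Eno1, Pkm, Ldhb and Pfkfb2. Depth was recovered from the steps of the values. For each gene above 0 in at least 1 library, the smallest whole length giving whole fragments within 0.002 of a fragment was kept. Longer lengths can fit as well, so recovered fragments of a gene may be too few. Pfkfb1 was kept at 662 bases and Gbe1 at 1235, beside mean annotated transcript lengths of 1324 and 2470. Among genes with at least 300 fragments the kept lengths were within 1 base of the mean annotated transcript length for 65.0%. Mitochondrially encoded genes held 15.2% to 19.8% of fragments.

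Genes whose mean reached 1 FPKM entered a limma fit (version 3.58.1, R 4.3.3) of log2(FPKM + 1) with a trended prior variance, adjusted by Benjamini-Hochberg at 0.05. This scale understates changes of low genes. Sample titles gave each library's group and number. The 37 genes, the isoform sets and the lists were chosen with earlier results of these data known. Named were all 37 genes, Mettl21e, and of each further list the genes past the test or else the most abundant (4 for the related genes, 2 for each marker list); a few of these are not reported here. Alternatives were other scalings, pseudocounts and filters, the replicate number as a block, no trend, library weights, voom and leaving out each library. Lengths other than those of the authors and the counts of directions were added after seeing the data. No pair of libraries of a label agreed within sampling noise (chi-square of at least 7.04 per degree of freedom). The main fit was also run on simulated libraries, with 1 spread setting for all genes and changes larger than the main differences described here. That run cannot show whether differences of their size would be found. Python 3.11.15, pandas 2.3.3, numpy 2.4.6, scipy 1.17.1 and matplotlib 3.10.9 were used.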

Additional observations from a re-analysis of the deposited data

How the results depend on the processing

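In every alternative run, leaving out each library included, 0 of the 37 genes were called, and the count over all genes stayed at 0 except when 1 library was left out, where it ran from 0 to 3. The count of the 36 at an unadjusted p under 0.05 was 4, and it was 2 with no mean-variance trend, 9 with library weights and 0 to 7 with 1 library left out. Of the 36 genes, 21 kept their direction in all 17 alternatives, among them Ugp2, Ldhb, Gpd2, Pgam1, Pygm, Gyg, Phka1, Epm2a and Ppp1r3a. For Ugp2, Ldhb, Gpd2, Gyg, Phka1 and Epm2a the labels did not overlap, so leaving out 1 library could not turn the sign. The replicate block, the other filters and the fit with no trend leave each estimate as it was, so they could turn no sign either. The sign turned for Tpi1 to 0.0293 (subtraction of each library median), Ppp1r3c to 0.0202 (subtraction of each library median), Ppp1r3c to 0.0063 (quantile normalization), Tpi1 to 0.0001 (without mitochondrially encoded genes), Hk2 to -0.0044 (limma array weights), Ppp1r3c to 0.15 (limma array weights). With 1 library left out the log2 differences that turned ran from -0.0494 to 0.0074 for Tpi1, -0.0117 to 0.15 for Gbe1, -0.33 to 0.24 for Ppp1r3c, -0.12 to 0.11 for Hk2, -0.0397 to 0.0542 for Ldha, -0.0311 to 0.42 for Pfkfb1, -0.007 to 0.27 for Pfkfb2, -1.15 to 0.51 for Pfkfb3, -0.13 to 0.26 for Pfkfb4, -0.0108 to 0.14 for Phkg1, -0.22 to 0.024 for Gys1, -0.25 to 0.0167 for Pfkl, -0.26 to 0.0742 for Pfkp, -0.0168 to 0.0937 for Aldoa, -0.0216 to 0.12 for Pfkm. Among the muscle isoform shares, the differences that turned ran, in percentage points, from -0.0127 to 0.231 for Pfkm, -0.0001933 to 0.0002438 for Aldoa, -2.95 to 13.5 for Pfkfb1, -1.07 to 9.51 for Ppp1r3a, and as a log2 ratio the Aldoa difference was -0.0604. The cause of these turns was not tested, and each left-out fit has fewer libraries. The labels do not say whether the replicate numbers pair samples. Same-numbered libraries correlated in their deviations at -0.04 to 0.02 over all tested genes, which cannot show whether they share a day or batch. With the replicate block 0 genes were called over all genes and 3 of the 36 had an unadjusted p under 0.05. Under it the Ldha share difference was 0.858 percentage points (exact sign-flip p = 0.25, the smallest that 3 pairs allow), and the log2 difference of Ugp2 was -0.28. Subtraction of library medians shifted the median of all genes by 0.05. Depth limits Aldoc, at 1 or 2 fragments a library, and Pygb, Pfkp, Pfkl, Pfkfb2, Hk1 and Pgam1, at 48 to 238.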
